A study of Xenopus tropicalis with 6 samples.

Results

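Transcripts of 39 centromere, kinetochore and spindle checkpoint genes were followed in brains of stage 46 *Xenopus tropicalis* tadpoles after CRISPR/Cas9 mutagenesis of *dyrk1a*, which encodes a protein kinase. The genes were chosen by symbol. All genes with a *cenp* symbol were taken (15 genes), together with those of 27 listed symbols that had a line in the deposited table of expressed genes (24 genes). They are 39 of the 15076 genes tested. The listed *kntc1*, *sgo2* and *hjurp* were not analysed here. That table holds genes with more than 1 cpm (reads of a gene relative to library size) in at least 3 libraries. A gene could enter it through a single group, and *cenpe*, *spc24* and *knl1* passed in all 3 *dyrk1a* CRISPR libraries but not in all 3 control libraries. The other 36 genes were above 1 cpm in all 6 libraries.

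*dyrk1a* CRISPR libraries (replicates 1 to 3) were compared with control libraries (replicates 1 to 3), each holding the RNA of 3 pooled brains of wild-type stock. The tadpoles of the first group, labelled as a *dyrk1a* knockdown, had received CRISPR reagents in both cells of the embryo, and the control tadpoles were not injected. By the methods of the study, the carcasses were genotyped and the most mutagenized brains were pooled, so animals were selected within the CRISPR group only, and edited and unedited cells can occur together in an injected animal. Effects of the injection itself cannot be told apart from those of the mutation. The question asked of the data was whether the transcripts of the machinery that attaches chromosomes to the spindle differed after *dyrk1a* mutagenesis.

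The kinetochore is built on centromeric chromatin that carries CENP-A, a variant of histone H3. A layer of inner CENP proteins sits on that chromatin, and the outer KMN network (Knl1, Mis12 and Ndc80 complexes) binds microtubules. Kinetochores without attached microtubules recruit Mad and Bub proteins, which hold the anaphase-promoting complex (APC/C) in check until every chromosome is attached. Many of these genes are transcribed in dividing cells ahead of mitosis, and in a tadpole brain the dividing cells lie mostly along the ventricles.

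Gene counts summed to between 21564980 and 28100633 in the *dyrk1a* CRISPR libraries and to between 9603583 and 35071943 in the control libraries, and the shallowest library was control 3. The targeted gene *dyrk1a* had 16.8, 13.2 and 15.04 cpm in CRISPR libraries, against 21.4, 10.8 and 14.8 cpm in control libraries (log2 fold change -0.07, SE 0.24, edgeR adjusted p = 0.936). A gene model with the symbol *dyrk1a.2* had 26.3, 32.9 and 26.6 cpm in CRISPR libraries, against 27.3, 29.6 and 27.3 cpm in control libraries. Its log2 fold change was 0.02 (SE 0.14, edgeR adjusted p = 0.963). The ranges overlapped for both models, and a count per gene does not read whether its sequence was edited. The study itself reported that read depth fell around the target site in *dyrk1a* in every injected replicate and in no control replicate. Reads at that site were not examined here. One axis of variation ran across the groups: the deviations of CRISPR 3 and control 1 from their group means correlated over all genes (r = 0.306), so counts of genes are also given without this pair of libraries. Neuron markers summed to between 10660 and 11130 cpm in CRISPR libraries and to between 11930 and 12490 cpm in control libraries, and brain region markers to between 425.4 and 492.9 cpm in CRISPR libraries and between 447.4 and 463.5 cpm in control libraries, so markers of the labelled tissue were present in every library.

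Of the 39 genes, 29 had a positive and 10 a negative log2 fold change (CRISPR minus control). The median was 0.20, against 0.01 over all genes tested, and 51.9% of all genes were positive. With edgeR 0 genes of the set passed an adjusted p of 0.05 in either direction (lowest adjusted p = 0.127), where 0% of all genes passed as higher and 0.00663% as lower. At an unadjusted edgeR p under 0.05, 11 of the 39 genes (28.2%) were higher in CRISPR brains and 1 (2.56%) was lower, beside 6.79% and 6.14% of all genes. Without control 2 the number of higher genes was 6, where 4.66% of all genes were higher, and without CRISPR 3 and control 1 it was 9, where 8.04% of all genes were. The number of lower genes was 0 without CRISPR 1 or without control 2, where 5.35% and 4.19% of all genes were lower. It was 2 without CRISPR 2, where 6.79% of all genes were. Leaving out *cenpe*, *spc24* and *knl1*, which would not have passed the filter on their control libraries alone, 9 of 36 genes were higher and 1 was lower at that threshold, and the median log2 fold change was 0.17. DESeq2, the tool of the study, called *mad2l1* and *bub1b* higher and 0 genes lower, among 38 with an adjusted p, beside 1.19% of all genes called higher and 0.842% called lower.

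In 14 of the 39 genes (35.9%) every CRISPR library lay above every control library, beside 9.13% of all genes. In 3 genes (7.69%) every CRISPR library lay below, beside 9.72% of all genes, and in 22 genes the groups overlapped. Without CRISPR 3 or without control 2 the lower genes numbered 5, beside 14.2% and 13.8% of all genes. Leaving out *cenpe*, *spc24* and *knl1*, 12 of 36 genes had every CRISPR library above. For a single gene with 3 libraries against 3, the exact two-sided permutation test cannot go below p = 0.1, the value each of these 17 separated genes reached. In bulk tissue, a larger share of dividing cells and more RNA of a gene per cell cannot be told apart.

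**Figure D1:**
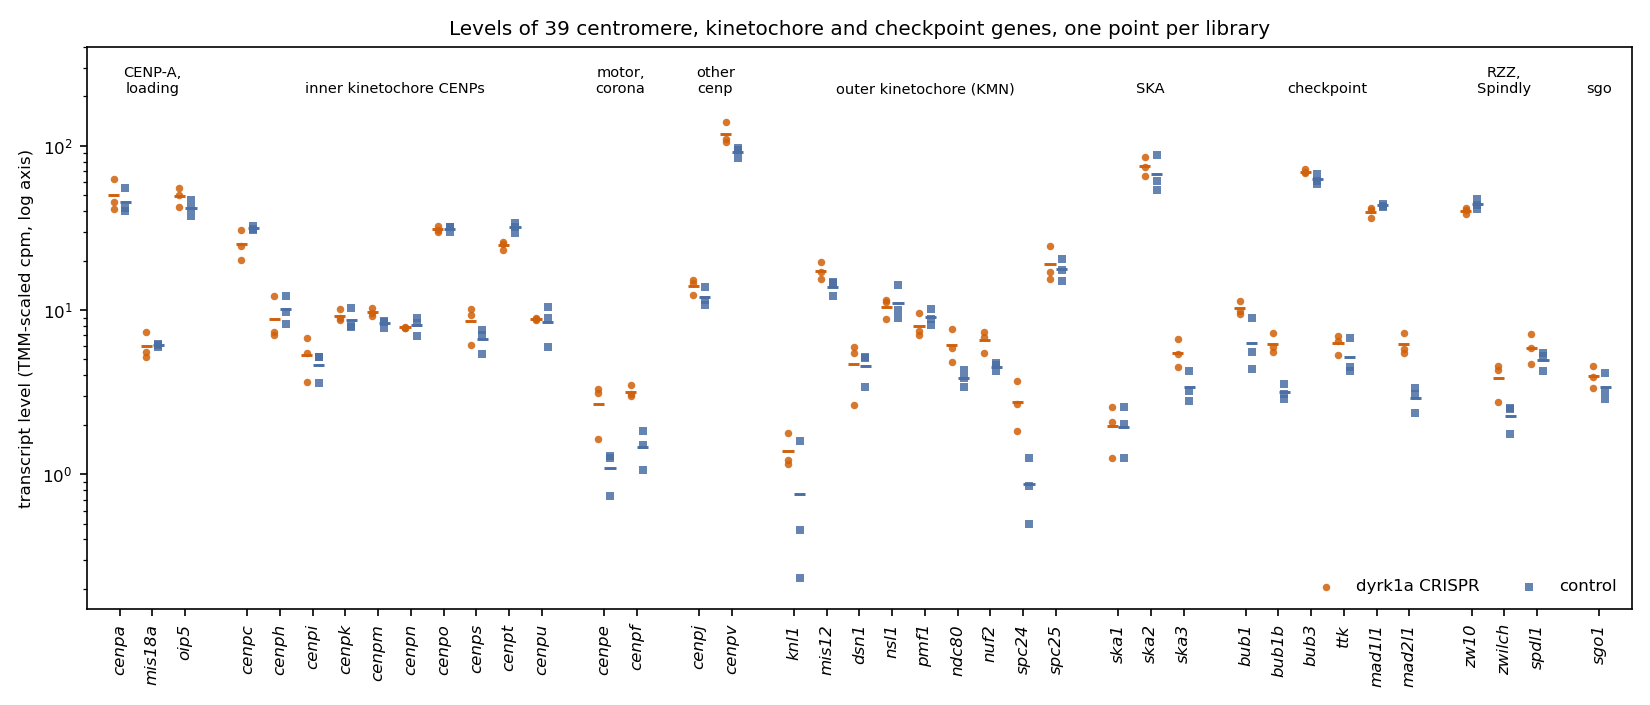
Levels of the 39 genes in cpm on a log axis, 1 point per library and a bar at the group mean, with *dyrk1a* CRISPR to the left of control within each gene. The groups are apart for *mad2l1*, *bub1b*, *cenpf* and *spc24* and overlap for *cenpa*, *ska1* and most inner kinetochore genes. Counts were not divided by transcript length, so levels of different genes are not to be compared.

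The checkpoint genes held the smallest p-values of the set. *mad2l1*, whose protein forms the inhibitory complex that restrains the APC/C, had 5.75, 5.50 and 7.28 cpm in CRISPR libraries, against 3.35, 2.37 and 3.07 cpm in control libraries. The groups were well apart, and its level was 2.11-fold that of control (log2 fold change 1.08, SE 0.25, edgeR adjusted p = 0.127). With DESeq2 *mad2l1* rose (adjusted p = 0.0190). *bub1b*, which encodes BubR1 of the same inhibitory complex, had 7.26, 5.55 and 5.92 cpm in CRISPR libraries and 3.55, 3.08 and 2.86 cpm in control libraries. This gene also rose with DESeq2 (adjusted p = 0.0336), with a fold of 1.96 (log2 0.97, SE 0.23, edgeR adjusted p = 0.141). Over the 16 settings tried, DESeq2 was the only one that called either gene, while both stayed positive in all of them, *mad2l1* between 0.89 and 1.22 and *bub1b* between 0.82 and 1.1 on the log2 scale.

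*bub1*, a kinase that marks centromeric histone H2A and recruits other checkpoint proteins, had 9.50, 11.4 and 9.87 cpm in CRISPR libraries, against 4.37, 5.53 and 8.89 cpm in control libraries. The groups did not overlap, but control 3 came close to the CRISPR libraries, and the log2 fold change of 0.75 (SE 0.26, edgeR adjusted p = 0.286) was 1.05 without that library. *ttk*, which encodes the Mps1 kinase that starts checkpoint signalling, had 5.33, 6.99 and 6.44 cpm in CRISPR libraries, against 4.25, 4.49 and 6.77 cpm in control libraries. Here control 3 lay inside the CRISPR range (log2 fold change 0.30, SE 0.25, edgeR adjusted p = 0.639).

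The remaining checkpoint genes differed by much less. *bub3*, the partner through which Bub1 and BubR1 reach the kinetochore, had 68.1, 69.1 and 71.8 cpm in CRISPR libraries, against 61.5, 67.4 and 58.4 cpm in control libraries, separated groups with a log2 fold change of only 0.16 (SE 0.11). *mad1l1*, which encodes the kinetochore anchor of Mad2, was separated the other way, with 36.1, 40.8 and 42.0 cpm in CRISPR libraries and 42.3, 43.3 and 44.4 cpm in control libraries (log2 fold change -0.13, SE 0.12, edgeR adjusted p = 0.687). In the group of 6 checkpoint genes, 5 were thus positive, with a median of 0.53, where 51.9% of all genes were positive.

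**Figure D2:**
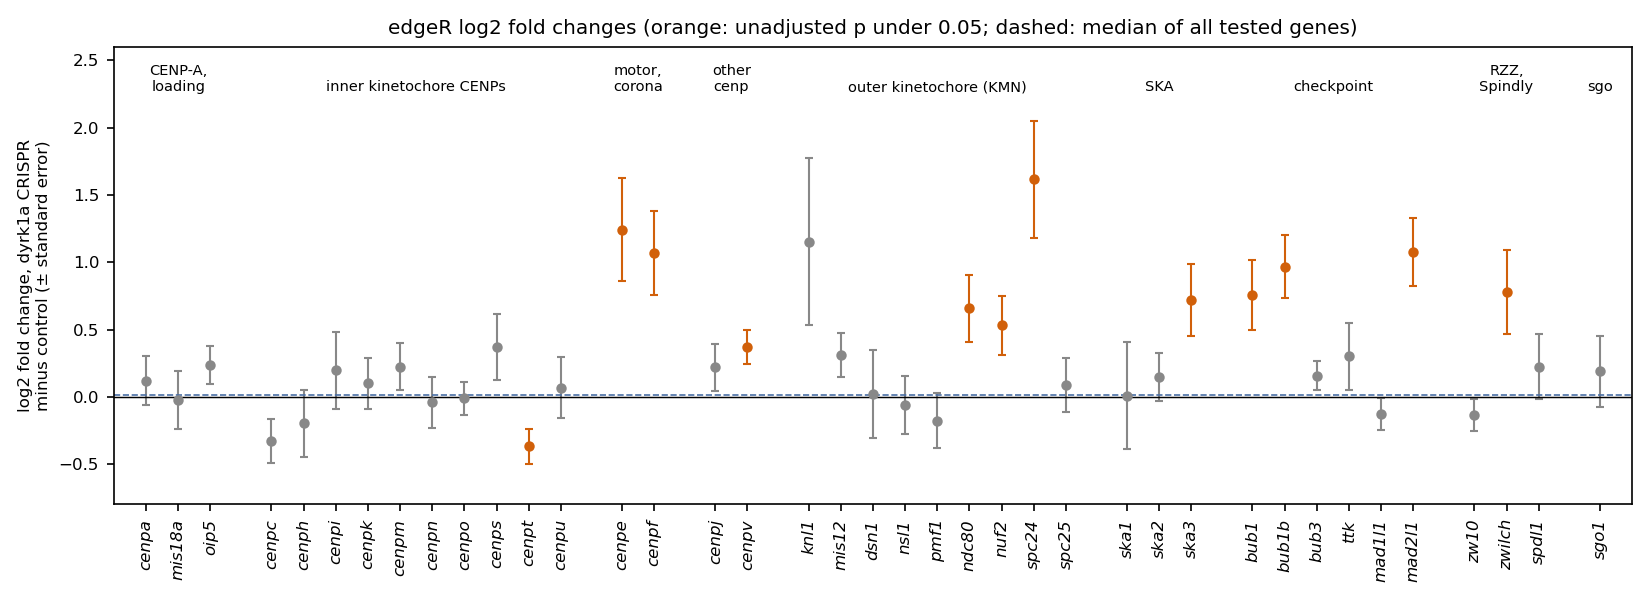
Log2 fold change of each gene, *dyrk1a* CRISPR minus control, with its standard error from edgeR, in role groups. Orange marks an unadjusted p under 0.05. The 12 marked genes include *cenpt* as the only one below 0, and *spc24*, at 1.62, has the largest value.

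Of the 9 KMN genes, 7 had a positive log2 fold change (median 0.31), beside 51.9% of all genes. In 4 every CRISPR library lay above every control library, beside 9.13% of all genes, and 1 of these 4, *spc24*, was not above 1 cpm in all control libraries. *spc24*, a subunit that ties the Ndc80 complex to the inner kinetochore, had 1.82, 2.66 and 3.71 cpm in CRISPR libraries, against 1.25, 0.499 and 0.847 cpm in control libraries. The groups did not overlap, and the difference of 1.62 on the log2 scale (SE 0.44) gave an edgeR adjusted p of 0.181 and a DESeq2 adjusted p of 0.0550. The counts behind it were 52, 61 and 79 in CRISPR libraries and 43, 12 and 8 in control libraries. *ndc80* itself, the main microtubule-binding subunit, had 4.84, 5.90 and 7.71 cpm in CRISPR libraries and 3.84, 4.33 and 3.39 cpm in control libraries. Its partner *nuf2* had 7.36, 6.86 and 5.45 cpm in CRISPR libraries and 4.60, 4.74 and 4.23 cpm in control libraries. Both were separated between the groups, by 0.66 (SE 0.25) and 0.53 (SE 0.22) on the log2 scale, and both were at unadjusted p under 0.05 with edgeR (0.0248 and 0.0348). *spc25*, which binds Spc24 in the same complex, showed no such separation, with 17.1, 15.5 and 24.4 cpm in CRISPR libraries and 20.6, 17.6 and 15.03 cpm in control libraries (log2 fold change 0.09, SE 0.20).

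The Mis12 complex, which links the Ndc80 complex and Knl1 to the inner kinetochore, was mixed. *mis12* had 17.04, 15.4 and 19.6 cpm in CRISPR libraries, against 14.9, 14.7 and 12.2 cpm in control libraries, a small separation of 0.31 (SE 0.16, edgeR adjusted p = 0.453). Its subunit gene *pmf1* pointed the other way, with 7.47, 7.03 and 9.59 cpm in CRISPR libraries and 10.2, 8.15 and 8.78 cpm in control libraries (log2 fold change -0.18, SE 0.20), and the groups overlapped. The remaining subunit genes *dsn1* and *nsl1* were at 0.02 (SE 0.33) and -0.06 (SE 0.22) on the log2 scale. Of the 16 settings tried, 6 gave *dsn1* the other sign and 3 gave *nsl1* the other sign. *knl1*, the scaffold on which Bub1 and BubR1 gather, had a log2 fold change of 1.15 (SE 0.62) that rested on few reads, 33, 28 and 38 counts in CRISPR libraries and 8, 11 and 15 counts in control libraries. In cpm control 3 (1.59) lay among the CRISPR libraries (1.16, 1.22 and 1.79), and the other control libraries were at 0.233 and 0.458. Without control 3 its value was 2.03 on the log2 scale (edgeR adjusted p = 0.352), and without CRISPR 3 and control 1 it was 0.40 (adjusted p = 0.826), so single libraries set the size of this difference.

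The CENP genes grouped here under the kinetochore motor and corona were *cenpe* and *cenpf*. They are not all the genes of the corona, and those of the RZZ complex and Spindly are given below. For both *cenpe* and *cenpf* each CRISPR library was higher than any control library, beside 9.13% of all genes. *cenpe* was not above 1 cpm in all control libraries. *cenpe*, a kinesin that carries chromosomes towards the spindle equator, had 3.30, 3.10 and 1.64 cpm in CRISPR libraries, against 1.28, 1.25 and 0.741 cpm in control libraries (log2 fold change 1.24, SE 0.38, edgeR adjusted p = 0.234). *cenpf*, a large coiled-coil protein that accumulates in G2 and binds the kinetochore in mitosis, had 3.47, 3.06 and 3.01 cpm in CRISPR libraries, against 1.83, 1.50 and 1.06 cpm in control libraries. That is a 2.10-fold difference (log2 1.07, SE 0.31, edgeR adjusted p = 0.215). With 7 to 99 counts per library, these levels carry wide counting error, and CRISPR 3 lay closer to the control libraries for *cenpe* than for *cenpf*.

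The SKA complex helps the Ndc80 complex to hold on to shortening microtubules. Of its 3 genes, *ska3* had 4.52, 5.37 and 6.63 cpm in CRISPR libraries, against 2.80, 3.20 and 4.23 cpm in control libraries (log2 fold change 0.72, SE 0.26, edgeR adjusted p = 0.307). *ska1* had 1.26, 2.58 and 2.07 cpm in CRISPR libraries, against 2.56, 1.25 and 2.01 cpm in control libraries. *ska2* had 74.4, 65.7 and 84.9 cpm in CRISPR libraries, against 87.4, 53.7 and 61.3 cpm in control libraries. Only *ska3* was separated, and the log2 fold changes of *ska1* (0.01, SE 0.40) and *ska2* (0.15, SE 0.18) were within their errors. In a RefSeq gene table of a later assembly *ska2* overlaps *prr11* and microRNA genes, *zwilch* overlaps *lctl*, and *mad1l1* overlaps unnamed genes, and since the libraries carry no mark of strand, reads of such genes may not be told apart.

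The RZZ complex helps to keep Mad1 at the kinetochore and, with Spindly, brings dynein there. *zwilch* had 2.74, 4.32 and 4.56 cpm in CRISPR libraries, against 2.50, 1.75 and 2.54 cpm in control libraries. Every CRISPR library was higher, though CRISPR 1 only narrowly (log2 fold change 0.78, SE 0.31, edgeR adjusted p = 0.342). *zw10* had 40.4, 38.2 and 41.6 cpm in CRISPR libraries, against 47.5, 41.1 and 43.4 cpm in control libraries (log2 fold change -0.14, SE 0.12). *spdl1*, encoding Spindly, had 4.66, 5.85 and 7.14 cpm in CRISPR libraries, against 5.45, 5.24 and 4.23 cpm in control libraries (log2 fold change 0.23, SE 0.24). For *zw10* and *spdl1* the groups overlapped. *sgo1*, the shugoshin that shields centromeric cohesin until anaphase, overlapped as well, with 3.33, 3.93 and 4.56 cpm in CRISPR libraries and 3.23, 4.16 and 2.86 cpm in control libraries (log2 fold change 0.19, SE 0.26).

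The 10 inner kinetochore CENP genes were centred near 0 (median log2 fold change 0.03, 5 positive and 5 negative), and they held the lowest values of the whole set. *cenpt*, whose protein bridges centromeric DNA and the Ndc80 complex, had 23.1, 25.8 and 25.4 cpm in CRISPR libraries, against 29.6, 34.1 and 32.2 cpm in control libraries. Every CRISPR library was lower (log2 fold change -0.37, SE 0.13, edgeR adjusted p = 0.294), the only gene of the set with an unadjusted p under 0.05 in this direction. *cenpc*, which binds CENP-A nucleosomes and recruits the Mis12 complex, had 24.6, 30.6 and 20.1 cpm in CRISPR libraries, against 30.8, 32.6 and 31.2 cpm in control libraries. These groups also did not overlap, with CRISPR 2 just below the control range (log2 fold change -0.33, SE 0.16, edgeR adjusted p = 0.431). *cenph* had 12.1, 7.38 and 7.05 cpm in CRISPR libraries, against 12.2, 9.77 and 8.25 cpm in control libraries (log2 fold change -0.20, SE 0.25). *cenps*, a histone-fold protein, had 9.29, 10.2 and 6.11 cpm in CRISPR libraries, against 5.42, 7.07 and 7.51 cpm in control libraries (log2 fold change 0.37, SE 0.24). Both overlapped. *cenpm* was the single inner gene with every CRISPR library higher, by 0.22 on the log2 scale (SE 0.17), and *cenpi*, *cenpk*, *cenpn*, *cenpo* and *cenpu* were between -0.04 and 0.20.

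The histone and its loading factors did not separate the groups. *cenpa* had 45.7, 41.3 and 62.8 cpm in CRISPR libraries, against 55.2, 41.8 and 40.3 cpm in control libraries, with CRISPR 3 and control 1 as the highest libraries (log2 fold change 0.12, SE 0.18). *mis18a*, part of the complex that licenses new CENP-A, had 5.19, 7.30 and 5.54 cpm in CRISPR libraries, against 6.20, 6.16 and 5.93 cpm in control libraries (log2 fold change -0.02, SE 0.22). *oip5*, which encodes its partner Mis18-beta, had 50.0, 42.4 and 55.6 cpm in CRISPR libraries, against 46.5, 41.6 and 37.4 cpm in control libraries (log2 fold change 0.23, SE 0.14, edgeR adjusted p = 0.510).

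Genes with a *cenp* symbol outside these layers were *cenpv* and *cenpj*. *cenpv* had 110.0, 106 and 140.0 cpm in CRISPR libraries, against 96.8, 84.1 and 94.3 cpm in control libraries, a separated difference (log2 fold change 0.37, SE 0.13, edgeR adjusted p = 0.278). *cenpj*, a centriole protein of which the human gene is linked to microcephaly, had 14.6, 15.2 and 12.4 cpm in CRISPR libraries, against 13.9, 11.4 and 10.7 cpm in control libraries, and the groups overlapped (log2 fold change 0.22, SE 0.17).

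**Figure D3:**
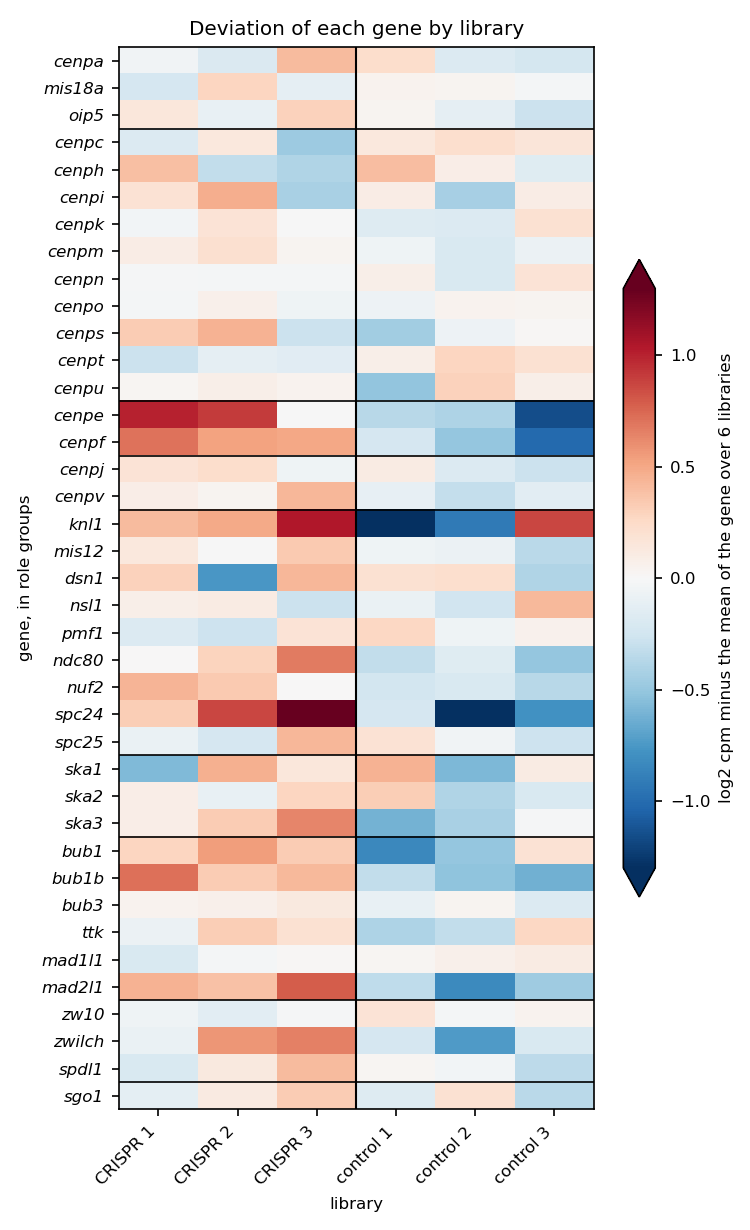
Deviation of each gene in each library from its mean over the 6 libraries, in log2 cpm, with red above and blue below the mean and colours saturating at the ends of the scale. The columns of CRISPR 1, 2 and 3 are red and those of control are blue for *cenpf*, *spc24*, *bub1b* and *mad2l1*, while control 3 is red for *knl1*, *bub1* and *ttk*.

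By library, CRISPR 3 held the highest level of 15 of the 39 genes, CRISPR 2 of 9 and CRISPR 1 of 4, against 4 in control 1, 3 in control 2 and 4 in control 3. Over all genes the highest library was CRISPR 3 for 23.1%, CRISPR 2 for 16.1% and CRISPR 1 for 14.4%. It was control 1 for 14.8%, control 2 for 16.8% and control 3 for 14.7%. The lowest level fell in CRISPR libraries for 3 genes each, and in control 1, 2 and 3 for 7, 10 and 13 genes. Shares of all genes were not taken for the lowest library, and control 3 was the shallowest library. On the first principal component of the 39 genes (56.7% of their variance) the CRISPR libraries were at -1.22, -1.75 and -2.19 and the control libraries at 1.62, 2.29 and 1.26. This component includes *cenpe*, *spc24* and *knl1*, which would not have passed the filter on their control libraries alone. It was not computed without them, so no support is drawn from the gap between the groups. On the first component of all genes (35.1% of the variance) the CRISPR libraries were at -8.77, -3.02 and -41.5 and the control libraries at 0.817, 30.5 and 22.1, which left a narrow gap between CRISPR 2 and control 1 and placed CRISPR 3 far from the rest of its group. CRISPR 3 and control 1 were the highest pair of libraries for *cenpa*, *pmf1*, *spc25* and *ska2*, 4 of the 39 genes, beside 12.8% of all genes.

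The genes were also grouped by their mean level over the 6 libraries. Over the 39 genes the mean cpm and the log2 fold change had a Spearman correlation of -0.554 (-0.434 without *cenpe*, *spc24* and *knl1*), given as a description, since the genes share the same 6 libraries and the error grows as counts fall (median SE 0.25 below a mean of 10 cpm and 0.15 from 10 cpm on). Below 10 cpm, 10 of 25 genes were higher at an unadjusted edgeR p under 0.05 and 0 were lower, beside 7.71% and 3.3% of all 5278 genes in that range. Of these 25 genes, 22 remain without *cenpe*, *spc24* and *knl1*, and 8 of the 22 were higher. From 10 cpm on, 1 of 14 genes was higher and 1 was lower, beside 6.29% and 7.68% of all 9798 genes. Those 2 were *cenpv* and *cenpt*. Similarly, 11 of the 25 genes below 10 cpm had every CRISPR library above every control library (10.7% of all genes there), against 3 of the 14 others (8.3%). Without *cenpe*, *spc24* and *knl1*, 9 of 22 genes below 10 cpm were so separated. Every CRISPR library lay below every control library in 0 of the 25 genes below 10 cpm (6.18% of all genes there). The same held in 3 of the 14 others (11.6%).

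Ratios between partners of the same complex were compared as well. For 9 pairs chosen after their values were seen, the ratio of counts was taken within each library, where depth and scaling cancel. Most of them set a gene that was separated on its own beside a partner that differed little, so the ratios are a description of that contrast and no p-value is drawn from them. *mad2l1* counts were 0.159, 0.135 and 0.174 of those of *mad1l1* in CRISPR libraries, against 0.0793, 0.0548 and 0.0691 in control libraries. Every CRISPR library was above every control library, by 1.21 on the log2 scale. For *bub1b* over *bub3* the ratios were 0.107, 0.0803 and 0.0824 in CRISPR libraries, against 0.0578, 0.0457 and 0.0489 in control libraries. For *spc24* over *spc25* they were 0.107, 0.172 and 0.152 in CRISPR libraries, against 0.0609, 0.0284 and 0.0563 in control libraries. Separated ratios were also found for *zwilch* over *zw10* (a difference of 0.89 on the log2 scale) and for *mis12* over *pmf1* (0.50). In all, 5 of the 9 pairs were separated, and no share over other pairs of genes was taken beside this. Of the genes in them, *spc24* was not above 1 cpm in all control libraries, and *mad1l1* was itself separated in the direction opposite to *mad2l1*. The ratios of *bub1* over *bub3* (a difference of 0.61 on the log2 scale), *ska3* over *ska2* (0.52), *ndc80* over *nuf2* (0.13) and *dsn1* over *nsl1* (0.04) overlapped between the groups.

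**Figure D4:**
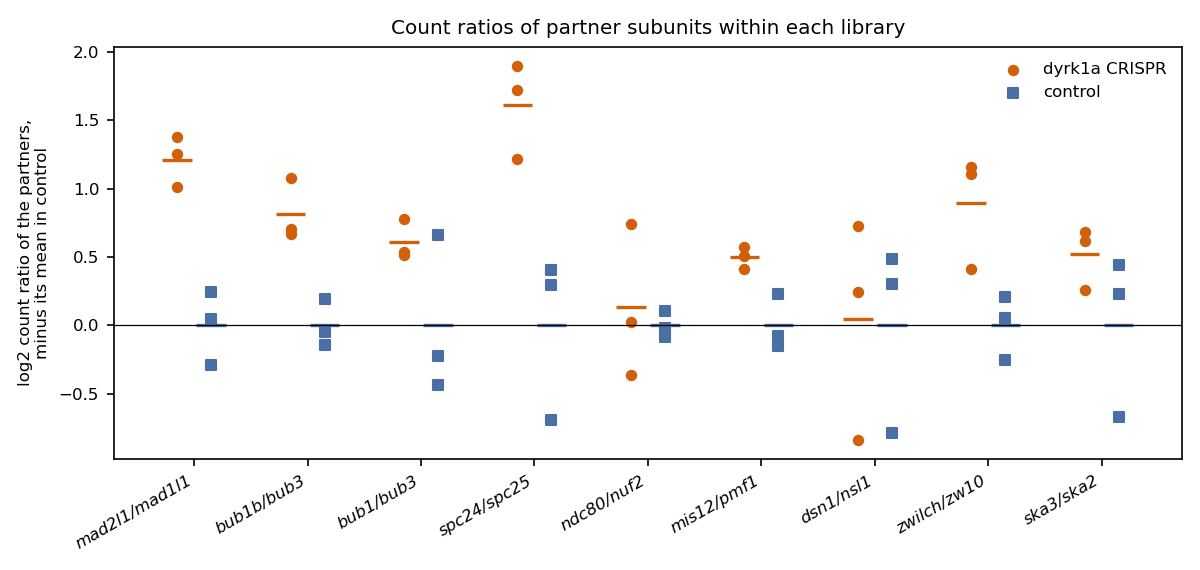
Log2 ratio of the counts of partner genes within each library, minus its mean over the control libraries, 1 point per library with a bar at the group mean, *dyrk1a* CRISPR left of control. The 3 CRISPR points lie above the 3 control points for *mad2l1*/*mad1l1*, *bub1b*/*bub3*, *spc24*/*spc25*, *mis12*/*pmf1* and *zwilch*/*zw10*.

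Counts per exon bin, a stretch of exon shared by the same transcripts, gave a reading along each gene. They come from the same reads as the gene counts and are no independent measurement. Of 480 bins of the 39 genes with at least 10 counts, 352 (73.3%) had a higher mean cpm in CRISPR libraries, beside 51.5% of all 182576 such bins. The 480 include bins of *cenpe* (22 of 23 higher), *spc24* (6 of 6) and *knl1* (12 of 14). These genes would not have passed the filter on their control libraries alone, and the share was not computed without them. The bins of *mad2l1* (5 of 5), *bub1b* (22 of 22), *ndc80* (20 of 20), *nuf2* (15 of 15), *zwilch* (19 of 19), *cenpf* (19 of 19), *ska3* (12 of 12) and *spc24* (6 of 6) were all higher, as were 24 of 25 for *bub1* and 22 of 23 for *cenpe*. Genes whose levels overlapped between the groups could show the same, as *spc25* (14 of 14), *oip5* (6 of 6) and *cenps* (5 of 5) did, so uniform bins were not particular to the separated genes. In *mad1l1* 1 of 14 bins and in *cenpc* 3 of 20 were higher. Few bins were higher in *dsn1* (1 of 9), *nsl1* (1 of 6), *pmf1* (1 of 6) and *cenph* (2 of 10) as well. The model of *cenpt* is a single bin, and that of *bub3* is merged with another gene that had no count in any library.

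Exon usage, the share of a bin within its gene, was tested on 214537 bins, of which edgeR called 0 (1.07% at an unadjusted p under 0.05) and limma called 1, in none of the 39 genes. The study used another tool, DEXSeq, and reported sites that passed its threshold, which were not compared here. Of 549 bins of the 39 genes 0 were called by edgeR and 5 (0.911%) were at an unadjusted p under 0.05, in *mis18a*, *oip5*, *cenpo* and *ttk*. Split views of *oip5*, *ttk*, *cenpo* and *cenpm* were made after these values were seen and are given as a description. In *oip5* the first bin held 87.5% of the bin counts and was 1.21-fold that of control, with overlapping groups. The other bins together had 3.67, 3.19 and 5.21 cpm of bin counts in CRISPR libraries, against 2.42, 1.89 and 2.21 cpm in control libraries, which is 1.85-fold and separated. In *ttk* the last bin was separated, with 1.49, 2.07 and 2.14 cpm in CRISPR libraries and 1.20, 1.07 and 1.38 cpm in control libraries. The other *ttk* bins overlapped, with 3.65, 4.27 and 3.66 cpm in CRISPR libraries and 3.06, 3.37 and 6.14 cpm in control libraries, and control 3 was the highest of all. In *cenpo*, which holds 2 of the 5 bins, the largest bin was 1.05-fold that of control with separated groups, and the other bins together were 1.07-fold and overlapped. That sum hides bins that went apart. Bin 1 (892 counts) was at -0.20 on the log2 scale. Bins 4 and 6, the 2 at an unadjusted p under 0.05, were at 0.89 and 1.11 on 102 and 48 counts. In *cenpm* the largest bin was 1.17-fold and separated, and the other bins were 1.39-fold and overlapped.

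**Figure D5:**
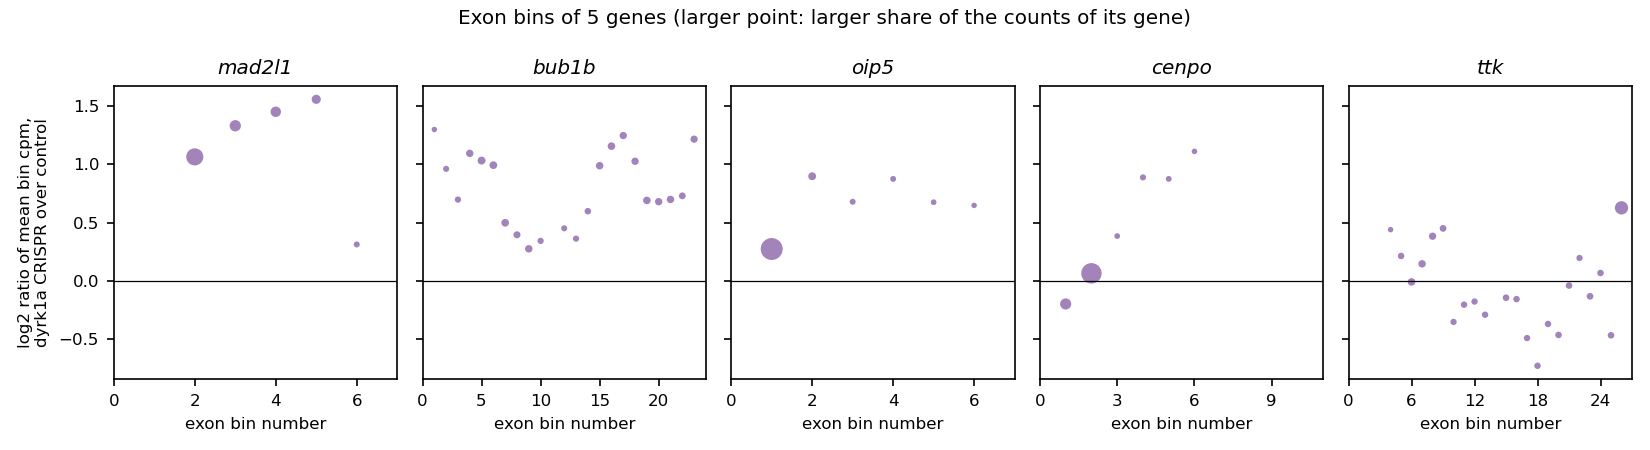
Log2 ratio of the mean cpm of each exon bin, *dyrk1a* CRISPR over control, against the number of the bin along the gene, for bins of at least 10 counts, with larger points for a larger share of the counts of the gene. All bins of *mad2l1* and *bub1b* lie above 0. *cenpo* has its largest bin near 0, its first bin below 0 and small bins above. The large first bin of *oip5* lies below its smaller bins, and *ttk* has its last bin at 0.63 with most others below 0.

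Genes that act next to the kinetochore were read in the same way. Of 20 tested genes of the APC/C and its regulators, 13 were positive, 2 were higher and 0 lower at an unadjusted edgeR p under 0.05, a share to be read beside the 6.79% of all genes. *ube2c*, the APC/C ubiquitin-conjugating enzyme, had 8.56, 6.16 and 9.07 cpm in CRISPR libraries, against 5.27, 2.29 and 3.39 cpm in control libraries, and rose with DESeq2 (log2 fold change 1.1, SE 0.31, DESeq2 adjusted p = 0.0476, edgeR adjusted p = 0.208). The APC/C inhibitor *fbxo5* was at 0.99 (SE 0.40, edgeR adjusted p = 0.342) and *anapc10*, a core subunit, at 0.29 (SE 0.14). The core subunits ranged on the log2 scale from -0.12 for *cdc16* to 0.52 for *anapc11*. The list of cohesin, securin and separase genes had 11 tested members, and neither securin nor separase was among them. Of these 11 genes of cohesin and its regulators, 8 were positive and 1 was higher at that threshold. This was *esco2*, an acetyltransferase that acts on cohesin in S phase, with 2.74, 5.72 and 2.77 cpm in CRISPR libraries and 1.51, 1.54 and 1.90 cpm in control libraries (log2 fold change 1.20, SE 0.37, edgeR adjusted p = 0.231). The cohesin release factor *wapl* was at 0.23 and the cohesin core *smc3* at -0.21.

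Proliferation and cell type markers were measured beside the kinetochore genes. *top2a*, a topoisomerase of dividing cells, had 10.3, 16.03 and 11.6 cpm in CRISPR libraries, against 5.68, 3.74 and 5.40 cpm in control libraries, and rose with DESeq2 (log2 fold change 1.36, SE 0.24, DESeq2 adjusted p = 0.000122, edgeR adjusted p = 0.0931). *mki67* and *pcna* were at 0.36 (SE 0.17) and 0.28 (SE 0.18). Over the 20 APC/C, 11 cohesin and 3 proliferation genes tested, 4 were higher at an unadjusted edgeR p under 0.05, beside 6.79% of all genes. Without control 1 the number was 7, beside 9.12% of all genes. All 9 tested markers of neural progenitors had positive log2 fold changes, 5 of them at an unadjusted edgeR p under 0.05, and their summed level was 3513 to 4108 cpm in CRISPR libraries and 2481 to 3212 cpm in control libraries. Of 11 neuron markers 1 was higher and 4 were lower at that threshold. Over all genes 6.79% were higher and 6.14% lower at it, shares to be read beside the count of each marker list. The part of a larger share of progenitors in the higher kinetochore transcripts was not tested. Of 6 tested microglia and blood cell markers 4 were higher, with sums of 61.6 to 67.5 cpm in CRISPR libraries and 38.0 to 42.9 cpm in control libraries. Of 8 tested skeletal muscle markers 7 were lower, with sums of 20.2 to 33.3 cpm in CRISPR libraries and 65.0 to 216.9 cpm in control libraries, and 4 of 9 stress genes were lower. Erythrocyte markers summed to 304.6 to 803.9 cpm in CRISPR libraries and 413.3 to 579.3 cpm in control libraries, and endothelium markers to 291.6 to 340.1 cpm in CRISPR libraries and 269.8 to 304.8 cpm in control libraries. In neither list, nor for the 1 epidermis marker tested, did a gene pass that threshold in either direction. The part of carried-over muscle or of blood cells in the kinetochore results was not tested.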

How the data were processed

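RNA of dissected brains, 3 pools per group, was polyA-selected and made into unstranded libraries. Per the labels and the methods of the study, the authors used STAR 2.7.3 and the XenBase v9.1 assembly. They deposited raw counts for 34229 gene models, log2(cpm + 1) values for genes above 1 cpm in 3 or more libraries, and raw counts per exon bin with 5 special counters, which were left out. The deposited log2 values chose the genes and served as an alternative. Replicates are separate pools of animals. Their numbers did not pair the groups (correlations of deviations -0.111, 0.197 and -0.0416).

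The 15076 filtered genes were tested on raw counts with edgeR 4.0.16 in R 4.3.3 (TMM scaling, quasi-likelihood F test, no covariate, Benjamini-Hochberg adjustment over all genes). The study used DESeq2, here an alternative (1.42.0), besides limma 3.58.1 with voom or on log2 values, other scaling and filters, the replicate block, and leaving out libraries. cpm values use TMM-scaled library sizes. Exon usage was tested with diffSpliceDGE on gene models of at least 5 counts. Bin ratios used a pseudocount of 0.05 cpm. Both tests were also run on simulated counts. Those held no axis across the groups and no shift in cell types, so they do not show how the tests behave on these libraries. RefSeq names and neighbours came from assembly UCB_Xtro_10.0, without coordinates.

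Values per library are given for *cenpa*, *cenpe*, *cenpf*, *ndc80*, *bub1*, *bub1b*, *mad2l1*, *ttk* and *sgo1*, for the 3 smallest p-values of each role group, the 4 lowest log2 fold changes, and a few genes taken after their values were seen (*mis12*, *spc25*, *bub3*, *mad1l1*, *knl1*). Of the other lists up to 3 genes with the smallest p are named, besides *cdc16* and *anapc11*, the ends of a range. The genes and lists were chosen with earlier results of these data known.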

Additional observations from a re-analysis of the deposited data

How the results depend on the processing

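Across 16 settings no alternative but DESeq2 called any of the 39 genes, and DESeq2 called 2 higher, against 0 with edgeR. When single libraries were left out, the number of higher genes at an unadjusted p under 0.05 was 6 to 10, beside 4.66% to 9.12% of all genes. That of lower genes was 0 to 2, beside 3.83% to 6.79% of all genes, and the median log2 fold change of the 39 genes was 0.13 to 0.29. The number with every CRISPR library higher was 15 to 17 with a library left out, beside 12.6% to 18.1% of all genes, where all 6 libraries gave 14 beside 9.13%. It was 19 without CRISPR 3 and control 1, beside 23.7% of all genes. The number with every CRISPR library lower was 3 to 5 with a library left out, beside 13% to 16.8% of all genes. Without CRISPR 3 and control 1 it was 5, beside 22.1% of all genes, where all 6 libraries gave 9.72%. That alternative was chosen after seeing the data, as was leaving out *cenpe*, *spc24* and *knl1*. The 3 neighbouring lists had 20, 11 and 3 genes tested. With a library left out, 3 to 7 of these genes were higher at an unadjusted edgeR p under 0.05. The count of 3 came without CRISPR 2 and without control 2, where 7.39% and 4.66% of all genes were higher. The 7 were without control 1, where 9.12% of all genes were higher. Over all genes DESeq2 called 173 higher and 122 lower, and edgeR without a filter 120 and 60, against 0 and 1 in the filtered edgeR fit. With the replicate number as a block 0 of the 39 genes were called, the median was 0.19 and 28 were positive, and no call among them differed. Of the 39 genes 11 had the other sign in at least 1 setting, among them *cenpa*, *ska1* and *spc25*. Genes with fewer than 10 counts in a library (*cenpe*, *spc24* and *knl1*) limit how closely their differences can be sized.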
